A study of Mus musculus with 3 samples.

Results

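The 6 long noncoding RNA genes that act in or from the nucleus, Malat1, Neat1, Kcnq1ot1, Pvt1, Mir155hg and Lncpint, were followed in single CD4+ T cells before and after stimulation, with and without IFT20. They were picked by name and are 6 of the 31053 genes counted. The values that chose them were their CPM (UMIs of a gene for each 1000000 UMIs of the pool) and the number of cells in which they were detected, by library and by class of unique molecular identifier (UMI) count per cell, so these values are given as a description with no test.

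The study examined what the intraflagellar transport protein IFT20 does in T cell activation. CD4+ T cells came from the spleens of C57BL/6 mice and were enriched as naïve CD4+ cells with magnetic beads, and living cells (7-AAD-negative, CD3+, CD4+) were sorted for droplet single-cell RNA sequencing. Unstimulated WT cells came from Ift20 f/f mice and were kept in buffer (DPBS) only. Stimulated WT cells came from the same genotype and were activated over 24 h by antibodies to CD3 and CD28, each at 1 μg/mL. Stimulated IFT20-KO cells came from Ift20 f/f CD4 cre mice and were treated in the same way. All the groups therefore carried the floxed Ift20 allele, and the deletion was driven from the Cd4 promoter, which is active from T cell development in the thymus on. Per the study's methods the mice were males aged 5 to 10 weeks, and the number of animals pooled in a library was not given in the sources used here. There was 1 library in each group, so no difference between groups has a replicate check, no test was possible, and every interval below covers counting error only (95%, exact). Fewer UMIs of a gene can reflect fewer cells that express it or less RNA in each cell, and both readings are given where the data separate them.

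After removal of barcodes with at most 200 genes or with 15% or more mitochondrial UMIs, the libraries kept 8031 (unstimulated WT), 9903 (stimulated WT) and 13920 cells (IFT20-KO), with 37133949 to 116979076 UMIs per library and a median of 4627, 12167 and 5014.5 UMIs per cell. Cells of the stimulated libraries were divided at 4056 UMIs, the stimulated WT median divided by 3. The low-UMI class held 2301 cells (23.2%) of the stimulated WT library and 6676 cells (48.0%) of the IFT20-KO library. Mitochondrial genes took 9.70% of the UMIs of low-UMI stimulated WT cells and 5.48% of those of low-UMI IFT20-KO cells, against 1.30% and 1.19% in the high-UMI classes, so the low-UMI class stood apart from the remaining cells in both libraries. Barcodes shared between pairs of libraries numbered 125 to 207 (1.01% to 2.01% of a library). All 6 CD4+ T cell markers (Cd3d, Cd3e, Cd3g, Cd4, Trac and Lck) were above 0 in each library, and Ift20 stood at 64.4, 76.0 and 6.60 CPM in unstimulated WT, stimulated WT and IFT20-KO cells. Defining genes of red blood cells, natural killer cells and myeloid cells were at or near 0, with summed levels of at most 0.754 CPM for any of these lists, and the summed levels were 0.846 to 3.31 CPM for 4 B cell genes and 9.16 to 28.7 CPM for Cd8a and Cd8b1. Nearly all of the last sum was Cd8b1 in each library. In unstimulated WT Cd8b1 was at 28.6 CPM (10.8% of cells) and Cd8a at 0.162 CPM (0.0747% of cells).

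Long noncoding RNAs are transcripts that are not translated into protein. Several of them stay in the nucleus: Malat1 gathers in nuclear speckles, the stores of splicing factors, and Neat1 is the scaffold on which paraspeckle proteins assemble. Kcnq1ot1 is transcribed antisense through Kcnq1 from the paternal chromosome and silences neighbouring imprinted genes, Pvt1 lies downstream of the Myc proto-oncogene, Lncpint is a target of p53 that has been tied to Polycomb repressive complex 2 (PRC2), and Mir155hg (also called BIC) is the primary transcript from which miR-155, a microRNA of activated lymphocytes, is cut.

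In the GRCm38 annotation (GENCODE M21), Malat1 (ENSMUSG00000092341) occupied chr19:5795690-5802672 on the minus strand and Neat1 (ENSMUSG00000092274) chr19:5824708-5845478 on the same strand, with 22035 bases between them. The longest transcript of each was a single exon, of 6983 bases for Malat1 and 20771 bases for Neat1. Kcnq1ot1 (ENSMUSG00000101609) was a single exon of 93092 bases at chr7:143203458-143296549, minus strand. Pvt1 (ENSMUSG00000097039) lay at chr15:62037986-62378096 on the plus strand with 10 annotated transcripts, and Lncpint (ENSMUSG00000044471) at chr6:31082565-31220488 on the minus strand with 16. Mir155hg (ENSMUSG00000097418) lay at chr16:84703167-84715245 on the plus strand, and its longest transcript had 2 exons and 1362 bases. The 6 genes thus ranged from unspliced transcripts to multi-exon genes that cover far longer stretches than their transcripts.

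The miR-155 sequences are shown because they are the product for which Mir155hg is known. Both mature strands lie on the plus strand of chromosome 16, miR-155-5p at chr16:84714143-84714165 and miR-155-3p at chr16:84714182-84714202, inside an exon of both annotated Mir155hg transcripts. Capitals mark the seed, bases 2 to 8 from the 5′ end (RefSeq, GRCm38.p6).
miR-155-5p: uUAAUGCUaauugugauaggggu
miR-155-3p: cUCCUACCuguuagcauuaac
The hairpin that holds both strands is at chr16:84714140-84714204.
hairpin: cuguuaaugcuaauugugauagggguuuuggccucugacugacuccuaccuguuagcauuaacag
The 2 seeds differ, so the strands do not belong to 1 seed family. Mature microRNAs were not measured by the assay, and all values below are of the Mir155hg host transcript.

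Droplet libraries are primed on stretches of adenosine, and such stretches were counted in the longest annotated transcript of each of the 6 genes. Runs of at least 10 A numbered 10 in the Kcnq1ot1 transcript, with a longest run of 41, and 1 in the longest Malat1 transcript, with 12. These transcripts have 93092 and 6983 bases, so the runs per 1000 bases were 0.107 for Kcnq1ot1 and 0.143 for Malat1. Neat1, Pvt1, Mir155hg and Lncpint had 0, with longest runs of 5 to 9. For Pvt1, Mir155hg and Lncpint these were spliced transcripts of 3319, 1362 and 1676 bases, and the introns were not searched. The longest run of each of the 2 genes that had one is shown in capitals with 12 bases on either side, written on the strand of the transcript, from GENCODE M21 (chr19:5795976-5796011 and chr7:143226933-143226997, both minus).
Malat1: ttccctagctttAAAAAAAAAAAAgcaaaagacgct
Kcnq1ot1: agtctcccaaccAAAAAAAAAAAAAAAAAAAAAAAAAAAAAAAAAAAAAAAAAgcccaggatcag
Whether any UMI was primed at these runs was not tested. The labels name a 5′ kit and the study's methods a 3′ kit, and the read position of a UMI is not part of a count table.

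Promoter windows of 250 bases before and 50 bases after the RefSeq start site (GRCm38.p6) were found for 4 of the 6 genes, Malat1, Kcnq1ot1, Mir155hg and Lncpint. They are shown for the gene with the largest difference on stimulation and for 2 genes that were lower after it. Capitals mark the 50 transcribed bases of Mir155hg (chr16:84712773-84713072, plus) and of Malat1 (chr19:5802623-5802922, minus).
Mir155hg: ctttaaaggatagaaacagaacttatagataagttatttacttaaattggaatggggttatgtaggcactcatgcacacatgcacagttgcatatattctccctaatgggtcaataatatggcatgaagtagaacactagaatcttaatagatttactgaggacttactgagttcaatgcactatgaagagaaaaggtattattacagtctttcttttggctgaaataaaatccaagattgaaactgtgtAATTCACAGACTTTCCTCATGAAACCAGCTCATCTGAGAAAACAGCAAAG
Malat1: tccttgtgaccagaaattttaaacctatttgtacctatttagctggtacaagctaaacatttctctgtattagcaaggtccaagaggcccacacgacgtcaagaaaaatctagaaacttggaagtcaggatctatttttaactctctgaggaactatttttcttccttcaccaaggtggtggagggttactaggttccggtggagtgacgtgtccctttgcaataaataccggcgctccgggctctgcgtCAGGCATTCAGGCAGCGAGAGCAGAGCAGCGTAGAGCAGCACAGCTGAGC
In the Lncpint window (chr6:31218425-31218724, minus) capitals mark motif matches.
Lncpint: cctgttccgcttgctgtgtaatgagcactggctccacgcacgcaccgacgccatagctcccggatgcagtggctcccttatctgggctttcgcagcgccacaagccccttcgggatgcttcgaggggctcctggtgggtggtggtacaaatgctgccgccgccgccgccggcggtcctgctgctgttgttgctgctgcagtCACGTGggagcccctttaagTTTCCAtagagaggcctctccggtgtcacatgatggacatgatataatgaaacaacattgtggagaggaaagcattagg
The windows held 34.3% G and C with 0 CG pairs for Mir155hg, 47.0% with 10 for Malat1, 53.3% with 9 for Kcnq1ot1 and 58.7% with 18 for Lncpint. Both strands were searched for TGANTCA (AP-1), CACGTG (E-box, the site of MYC family factors), TATAAA (the TATA box), TGGAAA (NFAT) and the kappaB motif. Lncpint had an E-box at position -49 from the start site and TGGAAA on the other strand, written TTTCCA, at -29, and the windows of Malat1, Kcnq1ot1 and Mir155hg had none of the 5 motifs. Of 32851 promoter windows, 7.81% held AP-1, 7.15% the E-box, 13.6% TATAAA, 21.4% NFAT and 4.51% kappaB letters. These are descriptions of the letters in the windows. The Mir155hg and Lncpint windows are each set on 1 of the annotated starts, which is not the gene's first base. The start site used was base 84713023 for Mir155hg, whose first base is 84703167. It was base 31218474 for Lncpint, whose first base on the minus strand is 31220488. Other starts of these genes were not searched.

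With stimulation, the summed share of the 6 RNAs in all UMIs went from 0.533% in unstimulated WT cells to 0.158% in stimulated WT cells. Malat1, Neat1 and Lncpint were lower, Mir155hg was far higher, and Kcnq1ot1 and Pvt1 were moderately higher. Mir155hg alone was at least 2-fold higher, where 20% of 13297 genes with at least 10 UMIs were, and 3 of the 6 were at least 2-fold lower, where 23.0% were. The median log2 ratio of all genes tested was -0.09. These counts depend on the scale: with UMIs per cell or with thinning to 1400 UMIs, 3 of the 6 were at least 2-fold higher and 0 lower, with Kcnq1ot1 at 2.05 and 2.19, Pvt1 at 2.19 and 2.16, and Malat1 at -0.51 and -0.80. With means of per-cell fractions, 3 were again 2-fold higher. UMIs per cell raised the log2 ratio of each gene in this comparison by the same amount. The shares of all genes past 2-fold on these other scales are not given, so these counts have no background beside them. Thinned cells weigh equally, so low-UMI cells count for more on that scale than in CPM. The thinned mean of Malat1 was 6.76 UMIs in unstimulated WT cells. It was 12.7 in low-UMI and 1.71 in high-UMI stimulated WT cells.

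Malat1, the speckle RNA, stood at 5197 CPM in unstimulated WT, 1427 CPM in stimulated WT and 2041 CPM in IFT20-KO cells. The stimulated WT level was 3.64-fold lower than the unstimulated level (log2 ratio -1.86, interval -1.87 to -1.86). In UMIs per cell the means were 24.0 and 16.9, a difference of -0.51 on the log2 scale, while the median UMI total per cell went from 4627 to 12167. The lower share of Malat1 therefore combined a lower count per cell with a higher total per cell. Malat1 was detected in 99.9%, 99.6% and 99.9% of the cells of the 3 libraries. The cells without a Malat1 UMI were 5 unstimulated WT, 39 stimulated WT and 19 IFT20-KO cells, of which 36 and 16 of the stimulated ones were low-UMI cells. The 39 stimulated WT cells had a median of 791 UMIs and a median of 0% mitochondrial UMIs, against 10.5% in low-UMI cells with 5 or more Malat1 UMIs.

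Neat1, the paraspeckle scaffold, stood at 60.7 CPM in unstimulated WT, 15.3 CPM in stimulated WT and 18.9 CPM in IFT20-KO cells. It was 3.98-fold lower in stimulated than in unstimulated WT cells (log2 ratio -1.99, interval -2.08 to -1.90). Its UMIs per cell were 0.281 and 0.180, and it was detected in 23.3% and 15.5% of cells although stimulated cells were deeper. Over all kept cells Neat1 was thus lower by the share of UMIs, by UMIs per cell and by detecting cells. With each cell thinned to 1400 UMIs, 7.21% of unstimulated and 3.83% of stimulated WT cells held a Neat1 UMI. The stimulated WT share was 11.8% in cells under 4056 UMIs and 1.85% in the others, and the lower level did not hold in each range of UMI count, as given below.

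Lncpint, the p53-inducible RNA, stood at 20.2 CPM in unstimulated WT, 8.27 CPM in stimulated WT and 13.3 CPM in IFT20-KO cells. The stimulated WT level was 2.44-fold lower than the unstimulated one (log2 ratio -1.29, interval -1.43 to -1.15). Over all kept cells the direction depended on the scale. UMIs per cell were 0.0933 and 0.0976 (log2 ratio 0.07), and the ratio of cells thinned to 1400 UMIs was 0.49. In the high-UMI cells of stimulated WT alone, Lncpint was at 4.75 CPM and 0.0704 UMIs per cell, below the unstimulated library on both scales. Thinned cells held a mean of 0.0242 Lncpint UMIs in unstimulated WT. In stimulated WT the thinned mean was 0.145 in low-UMI and 0.00671 in high-UMI cells. The direction on the thinned scale thus differed between the 2 classes.

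Mir155hg, the miR-155 host transcript, had 22 UMIs in all 8031 unstimulated WT cells, or 0.592 CPM (interval 0.371 to 0.897). It had 5273 UMIs (45.1 CPM) in stimulated WT and 6813 UMIs (64.0 CPM) in IFT20-KO cells. The stimulated WT level was 76.1-fold higher than the unstimulated one (log2 ratio 6.25, interval 5.65 to 6.92). Of the 6 RNAs it had the largest difference between the WT libraries. It was detected in 0.261% of unstimulated WT, 32.1% of stimulated WT and 30.2% of IFT20-KO cells, and in 0.0692%, 9.45% and 12.3% after thinning to 1400 UMIs. Of the B cell genes, which a sorted T cell should lack, Cd79a was seen in 0.187% to 0.374% of cells (0.0359% to 0.111% after thinning) and Cd79b in 0.616% to 1.05%. These cells can hold free RNA or be doublets or B cells, which were not told apart. The unstimulated share of Mir155hg lay in the range of Cd79a and below that of Cd79b, and the stimulated shares were above both. A share of this size cannot tell background from a few cells that express the gene. The unstimulated UMIs were more frequent in cells with Foxp3 or Cd69, as given below, and their origin was not tested.

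Kcnq1ot1, the antisense RNA of the Kcnq1 domain, stood at 40.8 CPM in unstimulated WT, 66.2 CPM in stimulated WT and 125 CPM in IFT20-KO cells. Its log2 ratio of stimulated over unstimulated WT was 0.70 (interval 0.62 to 0.78), short of 2-fold. It was detected in 14.9%, 42.2% and 47.8% of cells, and after thinning in 4.87%, 14.7% and 25.4%. The strand setting of the counting is not given in the sources used here, but Kcnq1 itself, on the other strand, had 0 UMIs in each library. Pvt1, the Myc neighbour, stood at 9.94, 17.7 and 30.0 CPM in the same order of libraries. Its log2 ratio of stimulated over unstimulated WT was 0.84 (interval 0.67 to 1.00), and it was detected in 4.45%, 17.05% and 18.1% of cells, or 1.27%, 4.98% and 7.16% after thinning. Both RNAs were highest in the IFT20-KO library when all cells were pooled.

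**Figure D1:**
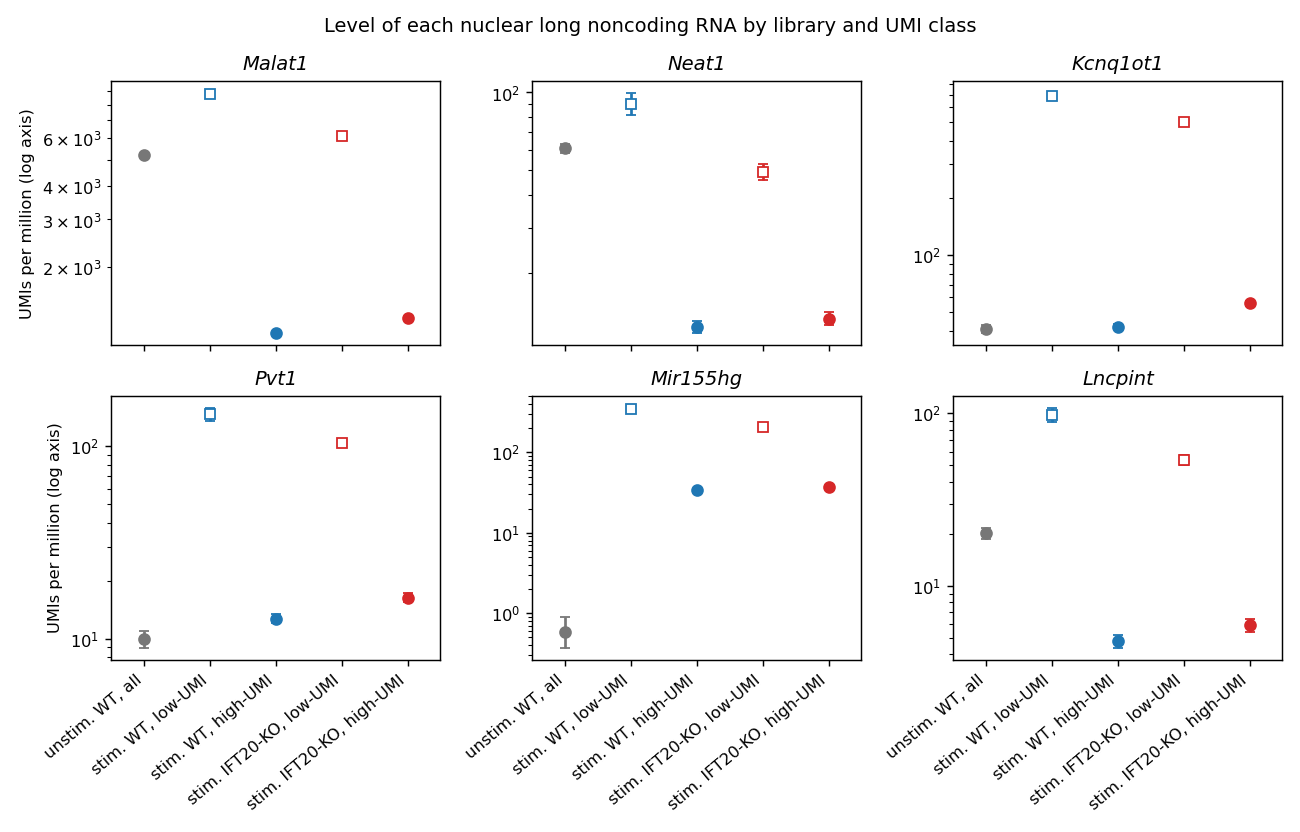
Level of each of the 6 RNAs in CPM, on a log axis that differs between panels, in all unstimulated WT cells (grey), low-UMI (open squares) and high-UMI (filled circles) stimulated WT cells (blue) and the same classes of IFT20-KO cells (red), with exact 95% counting intervals as bars where they exceed the symbol. Each RNA was higher in the low-UMI than in the high-UMI class of the same library, and Mir155hg stood at 0.592 CPM in unstimulated WT and at 33.5 CPM in high-UMI stimulated WT cells.

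The stimulated libraries mixed the low-UMI and high-UMI classes in different shares, and the 6 RNAs differed between the classes by 1.88 to 4.37 on the log2 scale of CPM. Low-UMI cells held 3.76% of all stimulated WT UMIs but 23.0% of Malat1, 22.2% of Neat1, 39.0% of Kcnq1ot1, 31.2% of Pvt1, 28.4% of Mir155hg and 44.7% of Lncpint UMIs. In the IFT20-KO library they held 15.6% of all UMIs and 40.5% (Neat1) to 62.5% (Lncpint) of those of the 6 RNAs. All 6 were at least 2-fold higher in CPM in low-UMI than in high-UMI stimulated WT cells, where 43.2% of genes were, and all 6 were in IFT20-KO cells as well, where 36.6% of genes were. In these comparisons 8.71% and 1.47% of genes were 2-fold lower, and 51.9% and 38.1% passed 2-fold either way.

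In stimulated WT cells the log2 ratio of low-UMI over high-UMI cells was 2.94 for Malat1 (8738 against 1142 CPM) and 2.87 for Neat1 (90.1 against 12.3 CPM). It was 4.04 for Kcnq1ot1 (688 against 42.0 CPM), 3.54 for Pvt1 (147 against 12.7 CPM), 3.35 for Mir155hg (341 against 33.5 CPM) and 4.37 for Lncpint (98.3 against 4.75 CPM). The median of all genes tested was 0.77. In IFT20-KO cells the ratios were smaller for each of the 6, from 1.88 for Neat1 (49.2 against 13.3 CPM) to 3.18 for Lncpint (53.4 against 5.90 CPM), with a median over all genes of 0.63. The same UMIs were also counted per cell, without scaling for the smaller total of low-UMI cells.

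Per cell, Malat1 had 16.7 UMIs in low-UMI and 16.9 in high-UMI stimulated WT cells, and 15.2 and 16.0 in IFT20-KO cells, with medians of 15 and 15, and 14 and 14. Neat1 had 0.172 and 0.183 UMIs per cell in stimulated WT and 0.122 and 0.165 in IFT20-KO cells. Between the finer ranges of UMI count used below, the Malat1 mean went from 13.1 to 21.6 in stimulated WT and from 8.83 to 21.7 in IFT20-KO cells. Between the 2 classes it was nearly level, while the median UMI total differed from 1829 to 13952 in stimulated WT. Kcnq1ot1, in contrast, had 1.31 UMIs in each low-UMI and 0.621 in each high-UMI stimulated WT cell, and 1.24 and 0.691 in IFT20-KO cells. Lncpint had 0.188 and 0.0704 UMIs per cell in stimulated WT and 0.132 and 0.0732 in IFT20-KO cells. Pvt1 had 0.281 and 0.188, then 0.258 and 0.203, and Mir155hg 0.651 and 0.496, then 0.518 and 0.463. These 4 RNAs had more UMIs per low-UMI cell than per high-UMI cell in both libraries, although a low-UMI cell yielded far fewer UMIs in all. This did not hold in each part of the low-UMI class. In IFT20-KO cells under 2000 UMIs, Kcnq1ot1 (0.568), Pvt1 (0.0868), Mir155hg (0.204) and Lncpint (0.0469) were below their high-UMI means. In stimulated WT cells under 2000 UMIs, Mir155hg (0.432) was below its high-UMI mean and Pvt1 (0.188) was level with it.

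Detection at equal depth was higher in low-UMI than in high-UMI cells for each of the 6 RNAs in both libraries. For Malat1 and Neat1 this order differed from that of the UMIs per cell. After thinning, Neat1 was seen in 11.8% of low-UMI and 1.85% of high-UMI stimulated WT cells, and in 6.38% and 2.19% of IFT20-KO cells. Detection at a fixed depth follows the share of UMIs and not the count per cell. After thinning to 1400 UMIs, Kcnq1ot1 was seen in 52.7% of low-UMI and 5.35% of high-UMI stimulated WT cells, and in 44.2% and 8.01% of IFT20-KO cells. Mir155hg was seen in 30.5% and 4.25%, then 20.1% and 5.18%, and Lncpint in 12.8% and 0.671%, then 7.23% and 1.10%. The low-UMI shares were higher in stimulated WT than in IFT20-KO cells for these RNAs, and the high-UMI shares were lower. Of the low-UMI stimulated WT cells 421 were below 1400 UMIs and were left out of this count, together with 801 unstimulated WT cells and 0 IFT20-KO cells.

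Mitochondrial share moved with the level of the 6 RNAs inside the low-UMI class. In low-UMI stimulated WT cells Malat1 was at 4383 CPM in the 291 cells under 5% mitochondrial UMIs and at 9278 CPM in the 2010 cells at or above it. Lncpint was at 14.5 CPM (7 UMIs, interval 5.81 to 29.8) and 109 CPM in the same cells, and Kcnq1ot1 at 202 and 749 CPM. In low-UMI IFT20-KO cells the split was 2654 and 4022 cells, and Malat1 was at 5468 and 6530 CPM, Kcnq1ot1 at 330.2 and 611 CPM. Each of the 6 was lower in the cells under 5% in both libraries. For Neat1 in stimulated WT the intervals overlapped (46.9 to 95.7 CPM from 33 UMIs, and 83.6 to 103 CPM). Median depth under and above 5% was 1254 and 1860.5 UMIs in stimulated WT, and 2358 and 2452 in IFT20-KO. The part of depth was not tested. The 128 high-UMI IFT20-KO cells at or above 5% mitochondrial UMIs, with a median of 4496 UMIs, had Malat1 at 6264 CPM and Kcnq1ot1 at 733 CPM, close to the low-UMI class rather than to the 1258 and 51.1 CPM of the other high-UMI cells. Ribosomal protein genes took 14.1% of low-UMI and 31.0% of high-UMI stimulated WT UMIs. The part of cell quality in these levels was not tested.

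In finer ranges of UMI count the levels were not a smooth function of depth. Kcnq1ot1 had 0.972 UMIs per stimulated WT cell under 2000 UMIs, 1.86 from 2000 to 4056, 0.278 from 4056 to 8000, 0.477 from 8000 to 16000 and 0.943 from 16000 on. In IFT20-KO cells the same ranges gave 0.568, 1.40, 0.751, 0.582 and 1.03. Mir155hg had 0.432, 1.00, 0.230, 0.351 and 0.804 UMIs per stimulated WT cell. In stimulated WT both RNAs thus had their highest count per cell in the cells of 2000 to 4056 UMIs, above cells with far more RNA captured. In IFT20-KO cells this held for Kcnq1ot1, whereas Mir155hg had 0.593 UMIs per cell in that range and 0.778 from 16000 UMIs on. In unstimulated WT cells of 2000 to 4056 UMIs, Kcnq1ot1 was at 31.1 CPM and 0.106 UMIs per cell, and Mir155hg had 1 UMI. Mitochondrial UMIs made up 2.44% there and 9.77% in the stimulated WT cells of that range. In that range the log2 ratio of stimulated over unstimulated WT was 0.46 for Malat1, 0.36 for Neat1 (interval 0.10 to 0.62) and 2.41 for Lncpint. The all-gene median there was 0.48. Malat1, Neat1 and Lncpint were below 0 in the same comparison under 2000 UMIs, from 4056 to 8000 and from 8000 to 16000. The 925 unstimulated WT cells under 2000 UMIs had 9.01% mitochondrial UMIs, and Malat1 was at 30084 CPM in them against 3957 to 5572 CPM in the deeper unstimulated cells.

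**Figure D2:**
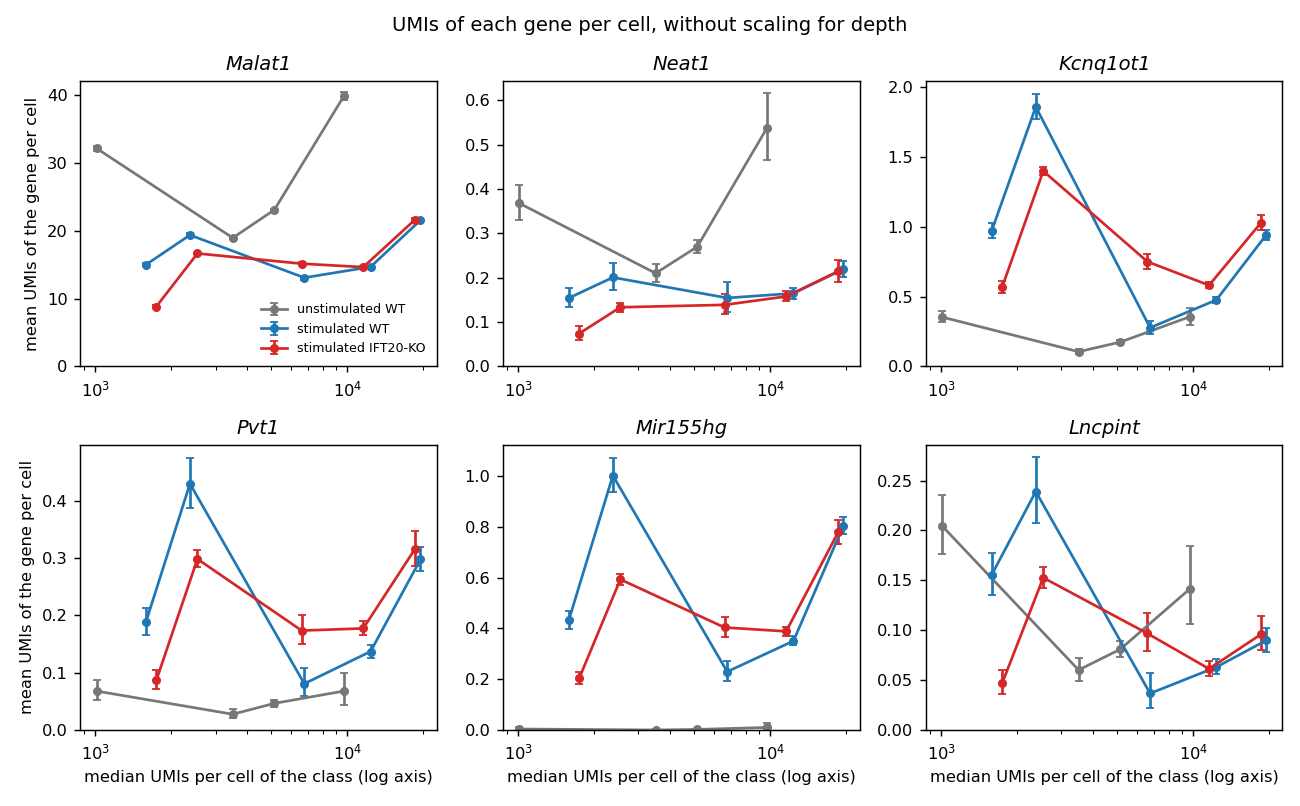
Mean UMIs of each RNA per cell, without scaling for depth, in cells grouped by UMI count and placed at the median UMI count of the group (log axis), for unstimulated WT (grey), stimulated WT (blue) and IFT20-KO cells (red), with exact 95% counting intervals. In stimulated WT cells Kcnq1ot1 peaked at 1.86 UMIs per cell in the range of 2000 to 4056 UMIs, and Mir155hg at 1.00.

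**Figure D3:**
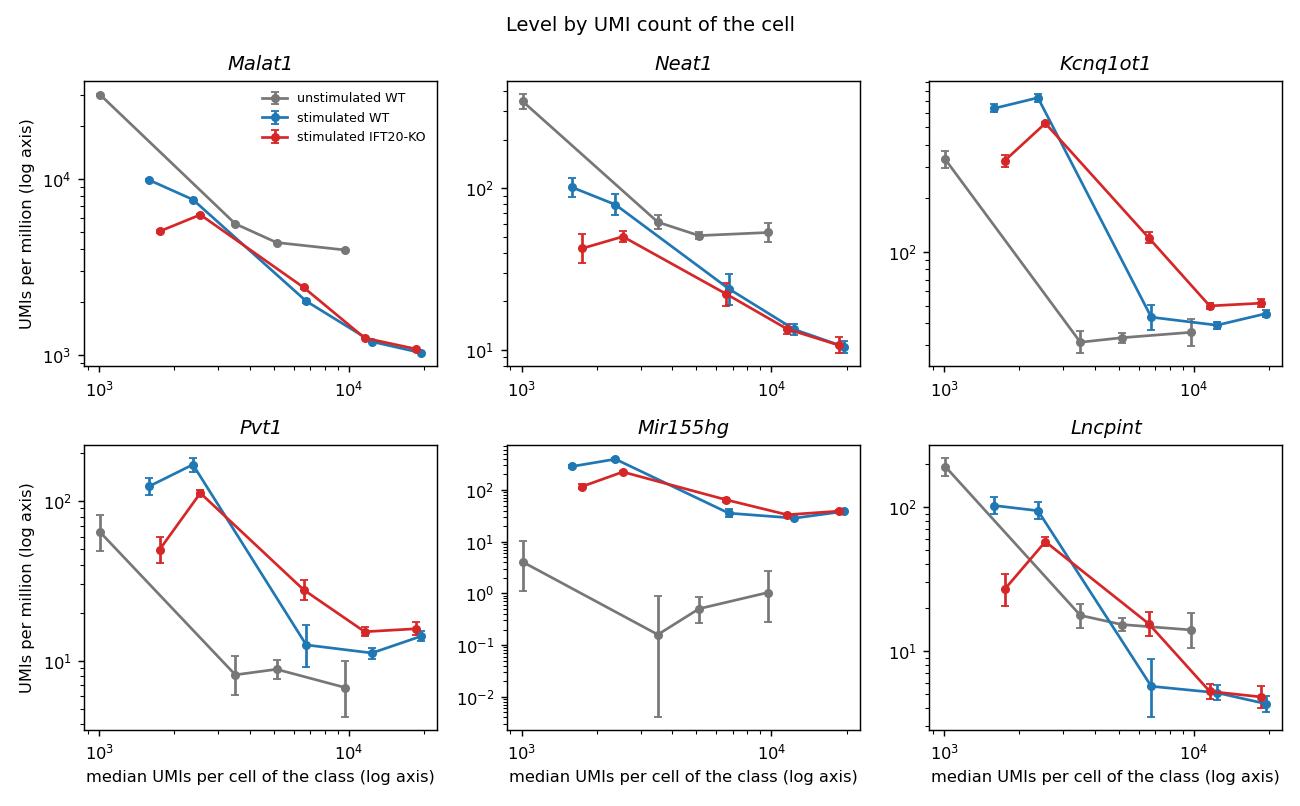
The same groups of cells with the level of each RNA in CPM, both axes being log axes, with exact 95% counting intervals. In stimulated WT cells Kcnq1ot1 went from 734 CPM in the range of 2000 to 4056 UMIs to 43.0 CPM in the range above it.

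In the high-UMI cells alone, which hold most of the stimulated WT library, the stimulated WT level was compared with all unstimulated WT cells. The log2 ratios were -2.19 for Malat1, -2.30 for Neat1 and -2.09 for Lncpint, and 5.82 for Mir155hg (interval 5.22 to 6.50). Pvt1 was at 0.35 (interval 0.18 to 0.52) and Kcnq1ot1 at 0.04 (interval -0.04 to 0.12). For Kcnq1ot1 this value moved with the cells and the scale: it was 0.33 against unstimulated cells at or over their own median UMI count divided by 3, 1.72 with UMIs per cell and -0.73 with means of per-cell fractions. Mir155hg alone was 2-fold higher (background 19.4%), and Malat1, Neat1 and Lncpint were 2-fold lower (background 25.7%). The median of all genes was -0.16.

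The comparison of IFT20-KO with WT cells after stimulation asks what the loss of IFT20 changes, and it shares the stimulated WT library with the comparison above. With all cells pooled, none of the 6 RNAs differed by 2-fold, where 3.92% of 13504 genes were 2-fold higher and 1.67% 2-fold lower (5.60% in either direction). All 6 were above 0 on the log2 scale, from 0.31 for Neat1 to 0.91 for Kcnq1ot1, with Malat1 at 0.52, Mir155hg at 0.51, Lncpint at 0.68 and Pvt1 at 0.76, against an all-gene median of 0.14. In UMIs per cell Malat1 was at -0.11, Neat1 at -0.32 and Mir155hg at -0.12. With cells held to over 1000 genes and below 10% mitochondrial UMIs, Kcnq1ot1 (1.30), Pvt1 (1.05) and Lncpint (1.13) were past 2-fold. The share of all genes past 2-fold under that filter is not given. Low-UMI cells had medians of 1085 genes and 10.3% mitochondrial UMIs in stimulated WT, and 1336 genes and 5.66% in IFT20-KO. The number of cells that this filter removed from each library is not given here, and its part in these ratios was not tested. Within classes, again in CPM, the picture divided. In high-UMI cells the 6 ratios were 0.18 for Malat1, 0.11 for Neat1 (interval -0.00 to 0.23), 0.41 for Kcnq1ot1, 0.36 for Pvt1, 0.15 for Mir155hg and 0.31 for Lncpint, with a median over all genes of 0.05. In low-UMI cells they were -0.52, -0.87, -0.46, -0.50, -0.71 and -0.88 in the same order, with a median of -0.06. No deposited IFT20-KO barcode had fewer than 1493 UMIs, whereas stimulated WT barcodes went down to 709. The part of this in the low-UMI ratios was not tested. Again 0 of 6 passed 2-fold in either class (background 2.25% higher and 1.79% lower in high-UMI, 2.73% and 2.90%, or 5.63% either way, in low-UMI cells).

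The IFT20-KO library held the larger share of low-UMI cells. When the low-UMI IFT20-KO cells were weighted to the share of UMIs that low-UMI cells held in stimulated WT, a weighting chosen after the data were seen, the ratios were 0.05 for Malat1, -0.06 for Neat1, 0.13 for Kcnq1ot1, 0.15 for Pvt1, -0.04 for Mir155hg and -0.11 for Lncpint. The 6 lay between -0.11 and 0.15 on this scale, and 3 of them were below 0. These ratios recombine the class levels given above, so they are not a separate result. No all-gene median is given on this scale. Whether the larger share of low-UMI cells belongs to the genotype or to that library cannot be told apart with 1 library in each group.

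By range of UMI count, Kcnq1ot1 was lower in IFT20-KO than in WT cells under 2000 UMIs (log2 ratio -0.98) and from 2000 to 4056 UMIs (-0.48), and higher from 4056 to 8000 (1.48), from 8000 to 16000 (0.36) and from 16000 on (0.19). Lncpint gave -1.93, -0.71, 1.44, 0.03 and 0.16 in the same ranges, and Pvt1 gave -1.32, -0.59, 1.15, 0.44 and 0.15. Malat1 moved less, from -0.97 and -0.28 to 0.26, 0.07 and 0.07. Mir155hg gave -1.29, -0.82, 0.86, 0.22 and 0.02. Of the 3 ranges above the threshold, the first held the highest ratio for these 5 RNAs, whereas Neat1 was at -0.11 there (interval -0.50 to 0.30). That range held 1095 IFT20-KO and 544 stimulated WT cells. The high-UMI IFT20-KO cells included 128 with 5% or more mitochondrial UMIs, at a median of 4496.5 UMIs. These 128 cells held 444 Kcnq1ot1, 92 Pvt1, 195 Mir155hg and 49 Lncpint UMIs. All IFT20-KO cells from 4056 to 8000 UMIs held 822, 190, 442 and 106. How many of the 128 lay in that range was not counted, and their part in its ratios was not tested. The all-gene medians in the 5 ranges were -0.20, -0.01, 0.17, 0.05 and 0.02. The cells under 2000 UMIs were not of equal depth, with medians of 1746 UMIs in IFT20-KO and 1587 in stimulated WT. Deposited barcodes started at 1493 and 709 UMIs in these 2 libraries.

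**Figure D4:**
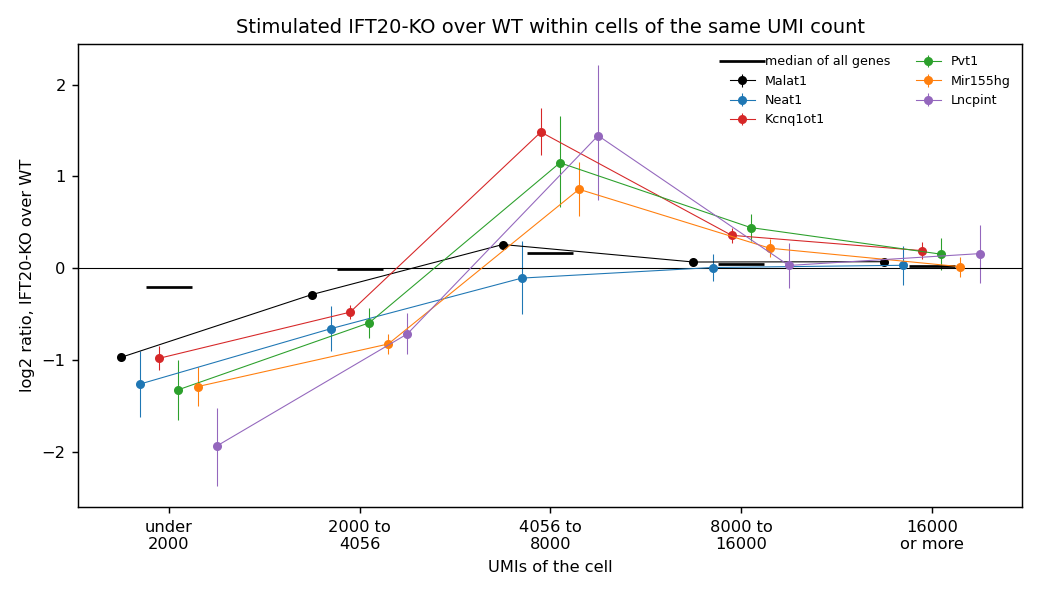
Log2 ratio of CPM, IFT20-KO over WT, for the 6 RNAs in stimulated cells grouped by UMI count, with counting intervals and the median of all genes. All 6 were below 0 in the cells under 4056 UMIs, and Kcnq1ot1 and Lncpint reached 1.48 and 1.44 from 4056 to 8000 UMIs. The part of the 128 high-UMI IFT20-KO cells with 5% or more mitochondrial UMIs in these ratios was not tested.

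**Figure D5:**
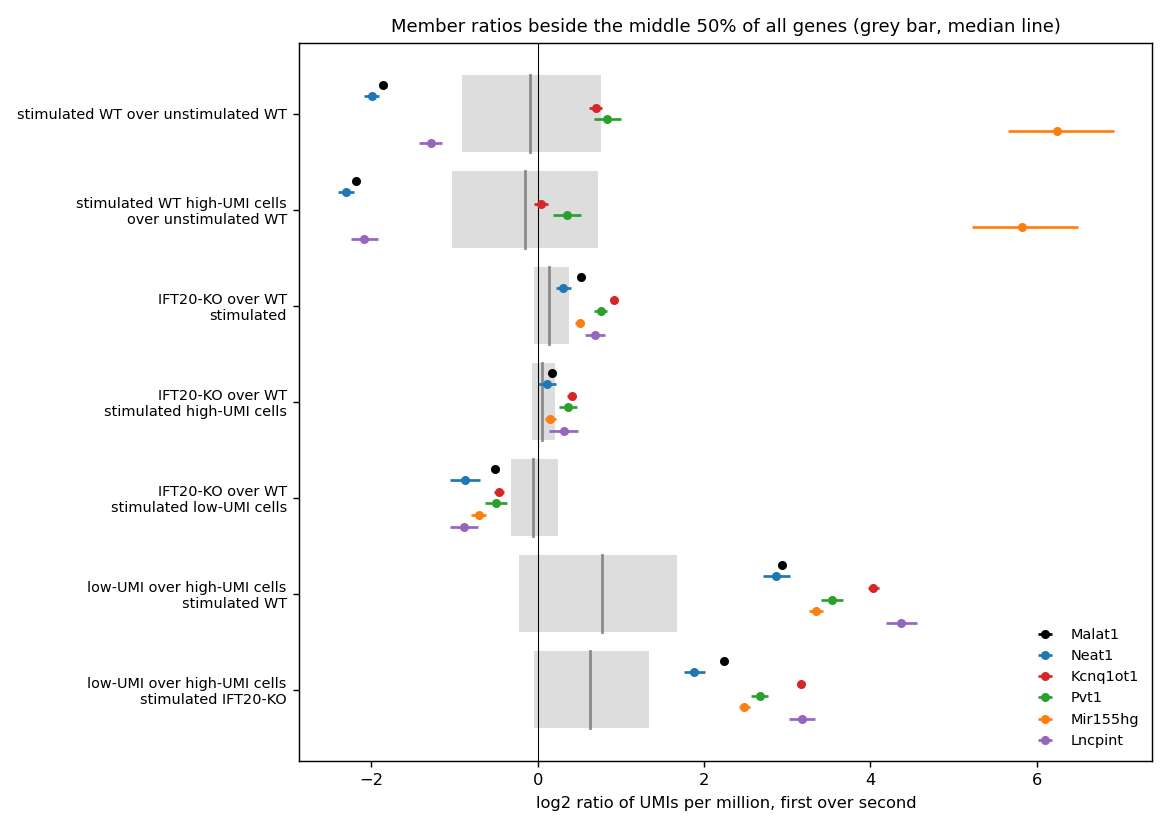
Log2 ratios of CPM of the 6 RNAs (points, with counting intervals) in the 7 comparisons, beside the middle 50% of all genes tested (grey bar) and their median (grey line). Mir155hg stood at 6.25 for stimulated over unstimulated WT cells, and no RNA passed a ratio of 1 in either direction for IFT20-KO over WT.

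Among cells of 1 library, Mir155hg was higher in cells that held a UMI of an activation gene. In high-UMI stimulated WT cells with Cd69, an early activation receptor, it was at 37.3 CPM against 17.6 CPM in cells without (log2 ratio 1.09, interval 0.93 to 1.24), and in IFT20-KO cells at 42.5 against 21.6 CPM (0.98, interval 0.84 to 1.12). With Il2, the T cell growth factor, the ratios were 0.67 and 0.88 in the 2 libraries. In unstimulated WT cells the 343 cells with Foxp3, the regulatory T cell factor, had Mir155hg at 3.59 CPM against 0.451 CPM in the others (log2 ratio 2.99, interval 1.35 to 4.42), and cells with Cd69 had 1.13 against 0.294 CPM. Those unstimulated values rest on 22 UMIs in all. Median depth was 4583 UMIs in cells with and 4627.5 in cells without Foxp3, and 14546.5 and 12002.5 in stimulated WT cells with and without Cd69, and the part of depth was not tested.

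In high-UMI stimulated cells Neat1 had the opposite relation to Cd69 and Il2. In unstimulated WT cells its ratio was 0.02 for Cd69 (interval -0.11 to 0.14) and -0.08 for Foxp3 (interval -0.39 to 0.21). In high-UMI stimulated WT cells with Cd69 it was at 10.97 CPM against 18.0 CPM without (log2 ratio -0.72, interval -0.89 to -0.54), and in IFT20-KO cells the ratio was -0.46 (interval -0.63 to -0.28). With Myc the ratios were -0.83 and -0.55. Malat1 differed less, with -0.14 and -0.10 for Cd69. Kcnq1ot1 was higher in cells with the proliferation gene Mki67, at 56.8 against 41.0 CPM in stimulated WT (0.47, interval 0.31 to 0.62) and 78.3 against 53.2 CPM in IFT20-KO cells (0.56, interval 0.44 to 0.67). Pvt1 was higher in cells with Cdkn1a, the p53 target p21, by 0.55 and 0.56 on the log2 scale, and Mir155hg by 0.49 and 0.40. For Myc, the neighbour of Pvt1, the ratios of Pvt1 were 0.23 (interval 0.02 to 0.44) and -0.08 (interval -0.26 to 0.11). Lncpint showed no such difference for Cdkn1a beyond its interval in either library (-0.07, interval -0.32 to 0.18, and -0.16, interval -0.41 to 0.10). Stimulated WT cells had a median depth of 16010.5 UMIs with and 12639 without Cdkn1a, and of 18541 with and 13779 without Mki67. The part of depth in these ratios was not tested.

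The 5 other RNAs were also followed across cells ordered by their own Malat1 share and divided into 3 equal groups, with Malat1 left out of the total. In high-UMI stimulated WT cells Neat1 was at 7.38, 12.7 and 17.9 CPM from the lowest to the highest Malat1 group, and Lncpint at 2.91, 4.04 and 7.83 CPM. Kcnq1ot1 was at 31.6, 41.9 and 54.6 CPM, while Pvt1 (11.8, 12.4 and 14.1 CPM) and Mir155hg (30.6, 33.5 and 37.2 CPM) differed less. The order was thus upward for all 5 in this library. In IFT20-KO cells Neat1 was at 9.18, 12.1 and 20.2 CPM, Lncpint at 3.24, 4.52 and 11.03 CPM and Kcnq1ot1 at 33.4, 44.6 and 98.1 CPM. Pvt1 was at 11.7, 14.9 and 24.2 CPM, and Mir155hg, at 33.0, 31.2 and 50.5 CPM, was not upward throughout. The mitochondrial share of UMIs was 1.16%, 1.26% and 1.502% in the stimulated WT groups and 0.976%, 1.11% and 1.58% in the IFT20-KO groups. The groups also differed in depth, with medians of 14933.5, 14336.5 and 12316.5 UMIs in stimulated WT, and the part of depth and of mitochondrial share was not tested.

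The genes with the most similar pattern over 14 pools of cells, by the root mean square difference of centred log2(CPM + 1) among 6123 genes, were Arhgap15, Mkl1 and Ankrd44 for both Malat1 (differences of 0.13 to 0.16) and Neat1 (0.18 to 0.19). Nfat5 and Ccl25 were among the nearest for both Kcnq1ot1 and Pvt1 (0.16 to 0.31). The nearest for Mir155hg were Tfrc, Alcam and Dtl (0.42 to 0.57), and for Lncpint Gm20696, Cers6 and Tgfbr3 (0.19 to 0.38). These pools are the ranges of UMI count of the same 3 libraries, so the likeness is a description.

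Partner genes of the 6 RNAs, from lists chosen with earlier results of these data known, were read beside them. Their counts in stimulated over unstimulated WT cells stand beside 20% of all genes 2-fold higher, 23.0% 2-fold lower and a median of -0.09. Of 12 paraspeckle proteins, 2 were at least 2-fold higher in stimulated than unstimulated WT cells and 0 lower, with a median log2 ratio of 0.59. Sfpq, which with Nono binds Neat1, went from 158 to 387 CPM (1.29), Tardbp reached 1.01, Nono 0.54 and Pspc1 0.95, and Ddx5 was at -0.63. Neat1 itself was at -1.99. Of 12 nuclear speckle proteins, 2 were 2-fold higher and 1 lower, with a median of 0.44. The splicing factors Srsf2 and Srsf1 were at 1.52 and 1.04, and Son, the core speckle protein, at -1.44 (407 and 150 CPM), beside -1.86 for Malat1.

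Around Kcnq1ot1, 7 of 12 genes of the imprinted domain had at least 10 UMIs. Cd81, a tetraspanin, was 2-fold higher in stimulated WT cells (1.63), Ascl2 had 46 UMIs in stimulated and 0 in unstimulated WT cells and was counted as higher, and Tspan32 (-1.95) and Osbpl5 (-1.68) were 2-fold lower. Cdkn1c, a maternally expressed growth inhibitor, was at 2.21 and 1.60 CPM (-0.47, interval -0.85 to -0.07). Among the genes that flank the 6, Myc, next to Pvt1, was at 75.6 CPM in unstimulated and 264 CPM in stimulated WT cells (1.81), where Pvt1 was at 0.84. In high-UMI IFT20-KO cells Myc was at -0.25 relative to WT (interval -0.28 to -0.23), while Pvt1 was at 0.36. In stimulated over unstimulated WT cells Mkln1, next to Lncpint, was at -0.38 and Frmd8, near Malat1, at -1.71. In total 2 of the 6 flanking genes with enough UMIs were 2-fold higher and 2 lower in that comparison, with a median of -0.13.

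For Mir155hg, 12 genes described as miR-155 targets were listed, and the letters complementary to the miR-155-5p seed, AGCATTA, were looked for in their 3′ UTRs (GENCODE M21). A single annotated principal transcript of each gene was searched. The match was present in 10 of 12 of these 3′ UTRs, with 12 matches in all, and absent from those of Peli1 and Maf. Other transcripts were not searched, and the share of all 3′ UTRs that hold these letters was not computed. Sites of 26 bases are shown for the targets whose levels are given next, with the seed match in capitals: Socs1 (chr16:10784202-10784227, minus), Inpp5d (chr1:87719824-87719849, plus), Bach1 (the first of its sites, chr16:87732174-87732199, plus), Ets1 (chr9:32757194-32757219, plus), Cebpb (chr2:167690352-167690377, plus) and Ikbke (chr1:131255148-131255173, minus).
Socs1: tgccgctgtgccgcAGCATTAagtgg
Inpp5d: agatgtttttaaaaAGCATTAaagaa
Bach1: tctatgaacagtttAGCATTAagggt
Ets1: actctgggttttaaAGCATTAacctt
Cebpb: ccttttccgtttcgAGCATTAaagtg
Ikbke: ttggccaacaaactAGCATTActttg
Of the 12, 6 were at least 2-fold lower and 3 at least 2-fold higher in stimulated than in unstimulated WT cells, with a median log2 ratio of -0.96, where 23.0% of all genes were lower and 20% higher, with a median of -0.09. Ikbke was at -1.94, Ets1 at -1.56, Bach1 at -1.24 and Inpp5d, the phosphatase SHIP, at -1.23, whereas Peli1 and Maf, without a match, were at -1.68 and -1.27. Socs1, a brake on cytokine signalling, was at 0.33, and Cebpb at 2.18. The genes with the letters spanned both directions, and a match is not a measured site. Between IFT20-KO and WT, 0 of 12 passed 2-fold in the high-UMI class (4.04% of all genes), where Socs1 was at -0.36 (interval -0.40 to -0.31). Of 9 genes that process or load microRNAs, 0 differed by 2-fold after stimulation, with Tarbp2 at 0.85, Xpo5 at 0.66, Dicer1 at -0.49 and Ago3 at -0.54.

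For Lncpint, a list of p53 target genes was read that also holds Trp53, the gene of p53 itself. Of its 12 measured genes, 7 were at least 2-fold higher in stimulated WT cells and 0 lower. Their median was 1.23, against 20%, 23.0% and -0.09 for all genes. Cdkn1a was at 0.377 CPM in unstimulated and 98.7 CPM in stimulated WT cells (log2 ratio 8.03, interval 7.28 to 8.90) and Phlda3 at 6.27, while Mdm2 (-0.12) and Trp53inp1 (-0.14) lay near 0 and Lncpint was at -1.29. Of 10 PRC2 subunits, 3 were 2-fold higher and 1 lower beside the same background, with a median of 0.60, with the methyltransferase Ezh2 at 2.78 (16.8 CPM unstimulated, 116 CPM stimulated) and its relative Ezh1 at -1.29. None of the p53 or PRC2 genes differed by 2-fold between IFT20-KO and WT cells, in the pool of all cells (5.60% of all genes) or in the high-UMI class (4.04%).

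Other long noncoding RNA genes were listed to place the 6, and 14 of the 29 named were in the table with at least 10 UMIs. In stimulated over unstimulated WT cells 3 were 2-fold higher and 5 lower, with a median of -0.59, against 20% and 23.0% of all genes and a median of -0.09. Mir17hg, the host of the miR-17 to miR-92 cluster, was at 1.47, and Gm2682 and Gm26740 were at -3.37 and -4.94. In stimulated WT, 10 of the 14 were at least 2-fold higher in low-UMI than in high-UMI cells, with a median of 2.17, and in IFT20-KO 9 of 14 with 1.41, against 43.2% and 36.6% of all genes and all-gene medians of 0.77 and 0.63. Jpx was at 3.24 and Gm2682 at 3.36 in stimulated WT, while Epb41l4aos (0.04) and 2900097C17Rik (0.00) were level. The higher share in low-UMI cells was thus present in other noncoding RNAs, though not in each of them. In low-UMI over high-UMI stimulated WT cells the median was 0.24 for paraspeckle proteins, 0.23 for nuclear speckle proteins and 0.03 for the p53 list with Trp53. It was 1.07 for the miR-155 targets and 1.02 for the microRNA processing genes, with Ago3 at 2.95.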

How the data were processed

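Counts of unique molecular identifiers (UMIs) per gene and cell were deposited by the authors as 1 filtered matrix for each of the 3 libraries. According to the submitters' processing notes the reads were processed with Cell Ranger 3.1.0 and the mm10 build, and the study's methods describe alignment, filtering of barcodes and UMI counting with Cell Ranger. The labels name a 5′ kit and the methods a 3′ kit, which was not resolved. The labels gave the groups.

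Barcodes needed over 200 genes, with mitochondrial genes below 15% of UMIs (the study's own filter), which removed 222, 417 and 12 barcodes. No doublet caller was run. UMIs were summed over the cells of a library or UMI class and divided by the total to give CPM (UMIs for each 1000000 in the pool), with exact 95% Poisson intervals, and exact binomial intervals for shares. Ratios were log2 ratios of CPM with an exact interval for the ratio of Poisson counts, over genes with at least 10 UMIs on both sides together. Called means at least 2-fold. With 1 library in each group no p-value was computed, and intervals cover counting error only. Depth was 37133949, 116979076 and 106435143 UMIs. For equal depth, cells were thinned to 1400 UMIs at a fixed seed. The steps were tested on simulated data.

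The members and gene lists were chosen with earlier results of these data known. Besides the 6 members, the text names for each list genes among the 2 highest and 2 lowest ratios with at least 50 UMIs, Myc and genes that neighbour or partner a member, and for each member the 3 genes nearest in pattern. Nono, Pspc1, Cdkn1c, Ascl2, Mkln1, Inpp5d, Bach1, Ets1, Socs1 and Maf were named as partners, neighbours or targets of a member or after their values were seen.

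Alternatives were median-ratio scaling, UMIs per cell, a total without Malat1, mitochondrial and ribosomal protein genes, means of per-cell fractions, other cell filters, thinning, thresholds of 3000 and 6000 UMIs, and other count minimums. One weighting was added after the data were seen. Sequences came from RefSeq (GRCm38.p6) and GENCODE M21. Python 3.11.15, numpy 2.4.6, scipy 1.17.1, pandas 2.3.3 and matplotlib 3.10.9 were used.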

Additional observations from a re-analysis of the deposited data

Results flagged for a closer look

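In CPM, the ratio of IFT20-KO over WT went in opposite directions in high-UMI and low-UMI stimulated cells for 5 of the 6 RNAs. Their counting intervals left out 0 on both sides. The log2 ratio was 0.18 in high-UMI and -0.52 in low-UMI cells for Malat1, 0.41 and -0.46 for Kcnq1ot1, 0.36 and -0.50 for Pvt1, 0.15 and -0.71 for Mir155hg, and 0.31 and -0.88 for Lncpint. Neat1 had the same signs, at 0.11 and -0.87, but the interval of the first reached 0. Within the high-UMI class the ratios of the 5 RNAs were highest under 8000 UMIs, from 0.26 for Malat1 to 1.48 for Kcnq1ot1. From 16000 UMIs on, Malat1 was at 0.07 and Kcnq1ot1 at 0.19, with intervals above 0. There Pvt1 (0.15), Mir155hg (0.02) and Lncpint (0.16) had intervals that reached 0. The high-UMI IFT20-KO cells included 128 with 5% or more mitochondrial UMIs, with Kcnq1ot1 at 733 CPM. Their part in the ratios was not tested. The difference between the classes was not tested, because there was 1 library for each genotype. Mitochondrial genes took 9.70% of the UMIs of low-UMI stimulated WT and 5.48% of those of low-UMI IFT20-KO cells, and the median depth of these cells was 1829 and 2421 UMIs. The lowest UMI count of a deposited barcode was 709 in stimulated WT and 1493 in IFT20-KO. The part of any of these in the opposite directions was not tested.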

How the results depend on the processing

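Of 366 recomputed ratios of the 6 RNAs, 142 stayed within their counting interval, 204 moved out of it without changing sign, and 20 changed sign, 16 of them from values whose interval left out 0. With UMIs per cell in place of CPM, Lncpint was at 0.066 for stimulated over unstimulated WT. On that scale IFT20-KO over WT was -0.11 for Malat1, -0.32 for Neat1 and -0.12 for Mir155hg, and in high-UMI cells -0.078 for Malat1, -0.14 for Neat1 and -0.10 for Mir155hg. Low-UMI over high-UMI cells was -0.020 for Malat1 and -0.085 for Neat1 in stimulated WT, and -0.080 and -0.44 in IFT20-KO. Thinning to 1400 UMIs gave 0.49 for Lncpint in stimulated over unstimulated WT, and means of per-cell fractions gave -0.28 for Pvt1 and -0.73 for Kcnq1ot1 in high-UMI stimulated over unstimulated WT and -0.031 for Neat1 in IFT20-KO over WT. For Kcnq1ot1 in high-UMI stimulated over unstimulated WT, totals without Malat1, mitochondrial and ribosomal protein genes gave -0.065 and all barcodes gave -0.055. The weighting of low-UMI IFT20-KO cells, added after the data were seen, gave -0.055 for Neat1, -0.043 for Mir155hg and -0.11 for Lncpint.

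The number of RNAs at least 2-fold higher in stimulated than unstimulated WT was 3 in place of 1 with UMIs per cell, with per-cell fractions and with thinning, and the number lower was 0 in place of 3 with UMIs per cell and with thinning. For high-UMI stimulated cells these were 3 and 0 with UMIs per cell. With cells held to over 1000 genes and to below 10% mitochondrial UMIs, 3 RNAs were 2-fold higher in IFT20-KO than WT in place of 0, namely Kcnq1ot1 (1.30), Pvt1 (1.05) and Lncpint (1.13). With UMIs per cell, 2 in stimulated WT and 0 in IFT20-KO were 2-fold higher in low-UMI cells in place of 6. The shares of all genes past 2-fold under these alternatives are not given, so the counts of RNAs have no background beside them. The causes of these shifts were not tested. The share of all genes past 2-fold in IFT20-KO over WT was 5.60% with at least 10 UMIs, 19.7% with at least 1 and 1.72% with at least 100. Median-ratio scaling shifted all ratios of low-UMI over high-UMI cells by 0.66 in stimulated WT and 0.57 in IFT20-KO, and those of the other comparisons by 0.04 to 0.17 in size.

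No paired analysis was possible because each group was 1 library. Mir155hg in unstimulated WT rested on 22 UMIs.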
